A study of Bos taurus with 7 samples.

Results

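The RNA fragments of 8 to 15 nt in the milk fraction labelled 100k were compared with those of the unfractionated cow's milk. The comparison used 4 of the 7 libraries of the study, namely the single library titled MP - 100k and the 3 milk libraries, and it was made sequence by sequence. All came from Bos taurus, Holstein by the label, and from one commercial product, Lactantia purefilter, a milk sold pasteurized, homogenized, skimmed and filtered. The labels spell out neither MP nor k, and they name no treatment, animal, age or carton. Every library was made from total RNA extracted with Trizol LS and treated with DNase on a column, with inserts of about 8 to 35 nt and 51 sequencing cycles. The 100k fraction had 1 library. Whether the 3 milk libraries are separate cartons or repeats of one preparation is not stated, so a p-value reflects only how much they vary, and that variation may be technical.

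The milk libraries held 1658606, 3070812 and 4572650 reads and the 100k library 1938689. Values are given as RPM, reads per 1000000 reads of 8 to 15 nt, and a count of 0 allowed up to 3 reads, or 0.656 to 1.81 RPM in the 4 libraries. Of 153987 distinct sequences in these libraries, 6360 had 10 or more reads in 100k or in each milk library, and they held 90.0% to 92.7% of the milk reads and 92.4% of the 100k reads. The 100k library entered 5131 of them and milk 2252, with 1023 entering through both.

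Ribosomes are built on ribosomal RNAs (rRNAs), in animals 28S, 18S, 5.8S and 5S, and the 5.8S rRNA is cut out of a longer precursor that leaves it with a defined 5' end. Transfer RNAs (tRNAs) carry amino acids to the ribosome, and cells and body fluids hold pieces of both kinds of RNA. In milk, RNA is found in vesicles, in protein complexes and in remains of cells. Libraries of short RNA are made by joining an adapter to each end of the RNA, so the first base of a read is the base that lay at the 5' end of the captured molecule or was recorded there. Names given to sequences below rest on general knowledge of conserved vertebrate rRNA and tRNA and were not matched to a bovine sequence here.

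One group of reads dominated every library, those ending in the same 9 bases as the 5' terminal fragment of 5.8S rRNA. Its unchanged forms share their 3' end and differ in where they start. They are shown because several of the largest differences between 100k and milk lay in their first bases, and capitals mark bases that precede the 12-nt form.
11-nt form: actcttagcgg
12-nt form: gactcttagcgg
13-nt form: Cgactcttagcgg
14-nt form: ACgactcttagcgg
15-nt form: TACgactcttagcgg
The changed forms below were abundant in 100k. Position 1 is the 5' base of the unchanged sequence, and capitals mark changed bases.
13-nt form with C1A: Agactcttagcgg
13-nt form with C1T: Tgactcttagcgg
13-nt form with G2T: cTactcttagcgg
13-nt form with C1A and G2T: ATactcttagcgg
13-nt form with C1T and G2T: TTactcttagcgg
13-nt form with C1G and G2T: GTactcttagcgg
12-nt form with G1C: Cactcttagcgg
12-nt form with A2G: gGctcttagcgg
12-nt form with G1C and A2G: CGctcttagcgg
Beyond 5.8S rRNA, the fragments on which the results turn are the following, where capitals mark the 9 bases used to gather the related sequences of each.
Lysine tRNA, 3' end: aCGTTGGGCGcc
Lysine tRNA, D arm: agtCGGTAGAGCatg
Histidine tRNA, D arm: tggTTAGTACTCtgc
Serine tRNA, 5' end, first kind: gACGAGGTGGc
Serine tRNA, 5' end, second kind: gtAGTCGTGGCcg
Alanine tRNA, 5' end: ggGGATGTAGCtc
Cysteine tRNA: tCAAGAGGTCcc
Glycine tRNA, 5' end: gcaTTGGTGGTTcag
5S rRNA, 3' end: gGTGCTGTAGgc
18S rRNA: gcAGCTAGGAAtaa
28S rRNA, second stretch: gggAACGTGAGCtgg
28S rRNA, leading stretch: caGGACGGTGGcca

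The 5.8S end family made up 70.2%, 70.8% and 76.1% of the reads in milk 1, 2 and 3 and 77.3% in 100k (95% Wilson interval 77.3 to 77.4). Its total thus stood just above the highest milk library, while its make-up differed. The 12-nt form, which lacks the first base of 5.8S rRNA, held 37.7%, 46.5% and 53.7% of milk reads and 15.8% of 100k reads. The 13-nt form, which starts at that first base, had 260255, 189882 and 166555 RPM in milk and 449328 RPM in 100k, 44.9% of its reads. The milk libraries did not overlap with 100k for either form. With edgeR, the log2 fold change of the 12-nt form was -1.54 (SE 0.34, adjusted p = 0.0351) and that of the 13-nt form 1.13 (SE 0.32, adjusted p = 0.0354). With TMM scaling the 12-nt form kept its direction, at -3.00, while that of the 13-nt form turned to -0.25. With DESeq2, which scales in its own way, the 13-nt form had 0.26. The rise of the 13-nt form is thus given relative to the total of the library. TMM factors came from the kept sequences, most of which had entered through 100k reads alone, and how far this moved them was not tested. The ratio of the forms needs no scaling. The 13-nt form fell short of the 12-nt form in each milk library, at 0.690, 0.408 and 0.310 reads per read of it, and outnumbered it in 100k, at 2.85.

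The longer starts moved in the same direction as the 13-nt form. The 14-nt form had 18978, 18863 and 18366 RPM in milk and 28159 RPM in 100k, and the 15-nt form had 4586, 4954 and 4492 RPM in milk and 15773 RPM in 100k. Both were above every milk library, and the edgeR adjusted p was 0.234 for the 14-nt and 0.0354 for the 15-nt form. With TMM their log2 fold changes went from 0.59 to -0.83 and from 1.75 to 0.33, neither called higher. The 11-nt form, at 6384, 6715 and 7714 RPM in milk, had 4491 RPM in 100k (edgeR adjusted p = 0.312). Reads of the family that ran on past the common 3' end were scarce throughout and scarcest in 100k, at 0.055%, 0.151% and 0.054% of the reads with the 9 bases in milk and 0.008% in 100k. Only reads of up to 15 nt could be seen, so the longer a form's start, the fewer bases past that end it could show. How far the longer starts of 100k lowered its share in this way was not tested. The 14-nt sequence gactcttagcggTG, where capitals mark the bases past that end, had 153, 465 and 173 RPM in milk and 0 reads in 100k, at least 170-fold lower than the milk mean at the floor of 3 reads (edgeR adjusted p = 0.0098). Without milk 2 this was at least 105-fold.

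**Figure D1:**
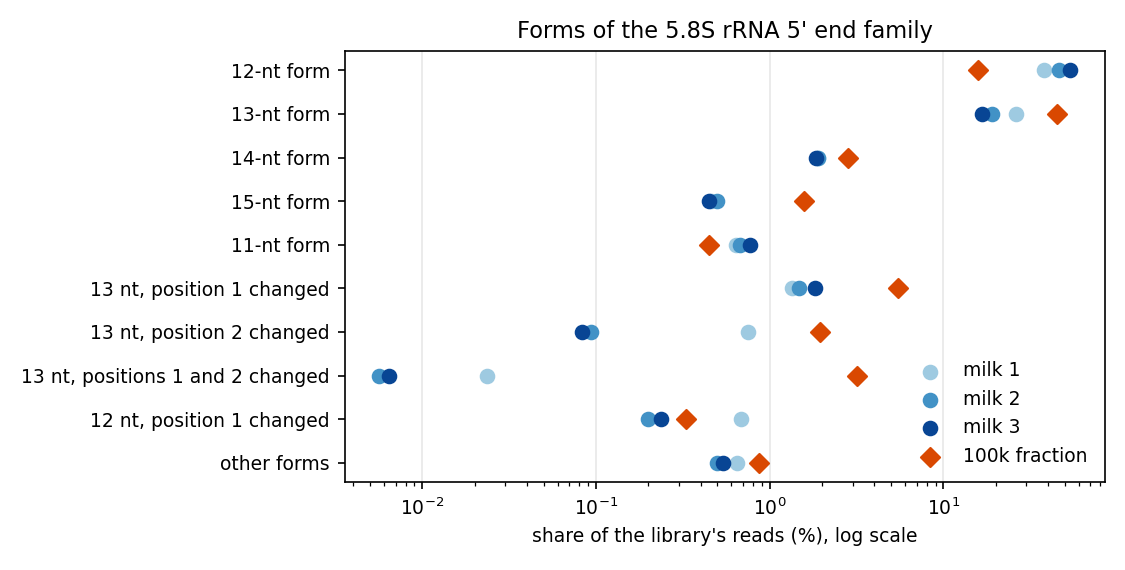
Share of each library's reads (%, log scale) held by each form of the 5.8S rRNA 5' end family, with circles for the 3 milk libraries and a diamond for the 100k fraction. The 12-nt form stands at 15.8% in 100k, under the 37.7% to 53.7% of milk, and 13-nt reads changed at both first positions stand at 3.19% against at most 0.0235%.

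These forms set the length profile. Reads of 12 nt made up 43.2%, 51.8% and 58.3% of milk and 19.2% of 100k, and reads of 13 nt 32.8%, 25.1% and 22.2% of milk and 59.1% of 100k. Outside the 5.8S family the 13-nt share was 14.8% to 15.1% in milk and 15.2% in 100k, so the large gap in 13-nt reads was carried by the family. There the 100k library differed at other lengths, with 13.5% of the remaining reads at 10 nt against 8.03% to 8.59% in milk and 19.3% at 14 nt against 23.6% to 23.7%. Wilson intervals of these 100k shares reached at most 0.0702 points on either side for all reads and 0.140 points outside the family. All intervals and floors cover counting error only, since the reads carry no molecular identifiers.

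**Figure D2:**
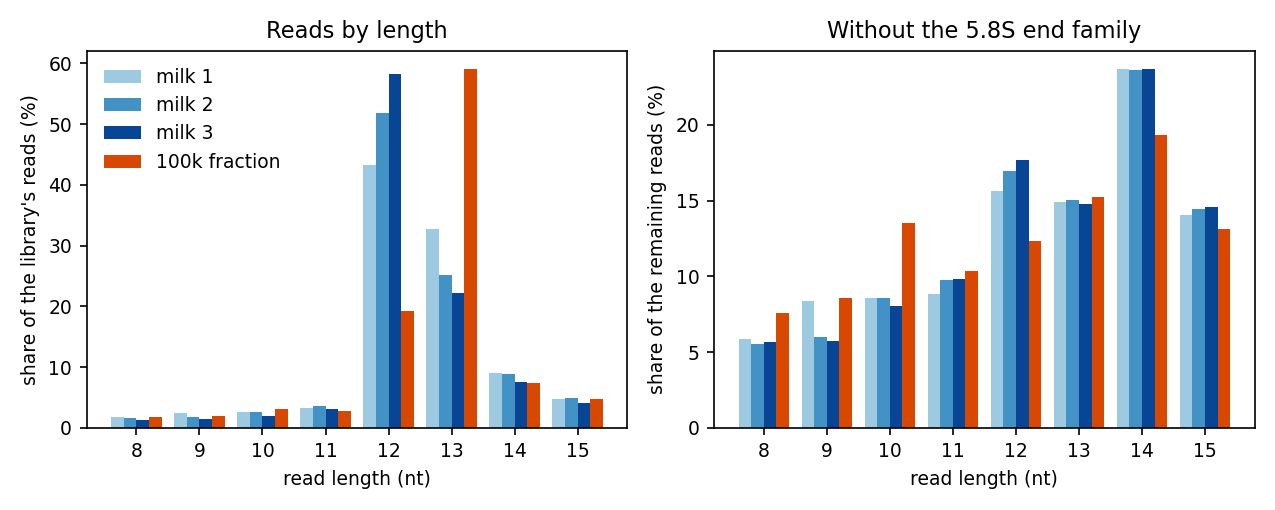
Share of reads by length (nt) in the 3 milk libraries and the 100k fraction, for all reads on the left and without the 5.8S end family on the right. At 13 nt 100k reaches 59.1% of all reads, against 15.2% of the reads outside the family, where milk has 14.8% to 15.1%.

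The first base of the reads shifted as well. Reads starting with A made up 8.39%, 9.06% and 7.96% of milk and 16.4% of 100k, and outside the 5.8S family 16.6% to 19.0% of milk and 25.4% of 100k. Reads starting with C, as the 13-nt form does, made up 24.9% to 36.9% of milk and 53.5% of 100k, whereas outside the family they stood lower in 100k, at 26.8% against 33.1% to 33.4%. Counted as distinct sequences, starts with A were again above each milk library, and the gap for C had the opposite sign, 0.442 points below the milk mean. No test of these shares was run, since 1 library against 3 cannot give an exact p below 0.25.

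Forms of the 5.8S end with 1 changed first base differed as well. The form with C1A had 6871, 7927 and 9693 RPM in milk and 44835 RPM in 100k, where only the 13-nt and 12-nt forms had more reads. It was 5.49 times the milk mean, with a log2 fold change of 2.46 (SE 0.38, edgeR adjusted p = 0.0106). The form with C1T rose from 837, 498 and 484 RPM to 4633 RPM (edgeR log2 fold change 2.93 with SE 0.52, adjusted p = 0.0182). With TMM scaling both log2 fold changes stayed positive, at 1.00 for C1A and 1.56 for C1T, and both calls ended. The form with C1G did not follow them, with 5755, 6304 and 8145 RPM in milk and 5215 RPM in 100k (edgeR adjusted p = 0.566).

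The size of the first-base result depended on which unchanged form it was set against. Per 1000 reads of the 13-nt form there were 26.4, 41.7 and 58.2 reads with C1A in milk and 99.8 in 100k. Per 1000 reads of the 12-nt form the same reads numbered 18.2, 17.0 and 18.1 in milk, which were close to each other, and 284 in 100k. The C1G reads behaved in the same way within milk, at 15.3, 13.6 and 15.2 per 1000 reads of the 12-nt form, and reached 33.1 in 100k. Per 1000 reads of the 13-nt form the C1G reads went the other way, with 22.1, 33.2 and 48.9 in milk and 11.6 in 100k. The C1T reads did not follow the 12-nt form within milk, at 2.22, 1.07 and 0.902 per 1000 reads of it, and reached 29.4 in 100k. Set against the 13-nt form, C1T reads were closer to each other in milk, at 3.22, 2.62 and 2.91 per 1000, and had 10.3 in 100k.

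A change at both first positions was abundant in 100k and scarce in the other 6 libraries. The form with C1A and G2T had 110, 17.9 and 24.5 RPM in milk and 26391 RPM in 100k. That was 518 times the milk mean and 239 times the highest milk library, with a log2 fold change of 9.03 (SE 0.89, edgeR adjusted p = 0.00334), or 10.27 without milk 1. The fractions labelled 12k, 35k and 70k had 29, 40 and 29 reads of it. The forms with C1T and G2T and with C1G and G2T had 2276 and 2018 RPM in 100k and at most 24.7 and 71.7 RPM in milk. Their log2 fold changes were 7.79 and 5.82, and 9.30 and 6.79 without milk 1. All 13-nt reads changed at both positions made up 0.0235%, 0.00563% and 0.00641% of milk and 3.19% of 100k.

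The 12-nt form had its own pair of changes. The form with G1C had 260, 126 and 160 RPM in milk and 2563 RPM in 100k (edgeR log2 fold change 3.81 with SE 0.58, adjusted p = 0.00977). The form with A2G had 181, 149 and 168 RPM in milk and 1871 RPM in 100k (edgeR log2 fold change 3.49 with SE 0.54, adjusted p = 0.0106). Both changes together gave 0.603, 1.63 and 1.09 RPM in milk and 585 RPM in 100k, 528 times the milk mean. G1T was the exception, with 6415, 1755 and 2087 RPM in milk and 192 RPM in 100k, 17.8-fold lower than the milk mean (edgeR log2 fold change -4.15, adjusted p = 0.0354). Without milk 1 its log2 fold change was -3.32.

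The change G2T could be followed through the read, because the same RNA base lies at read position 1, 2, 3 or 4 of the 12-, 13-, 14- and 15-nt forms. In 100k there were 39.0 changed reads per 1000 where the base was second in the read, and 1.22, 1.15 and 1.31 where it stood at position 1, 3 or 4. In milk 2 and milk 3 the 4 values lay between 3.09 and 4.04. Milk 1 stood apart from the other milk libraries, at 17.0, 23.3 and 24.5 per 1000 at positions 1, 3 and 4, and at position 2 it had 11234 changed and 431661 unchanged reads, a lower rate than the 34004 and 871107 reads of 100k. The changed 13-nt form had 6773, 669 and 584 RPM in milk and 17540 RPM in 100k, which edgeR did not call (log2 fold change 2.71, adjusted p = 0.0598). Without milk 1 its log2 fold change was 4.81. The change was thus frequent in 100k at read position 2 and not at the 3 others, and frequent in milk 1 at all 4.

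Changed first bases were not limited to 5.8S rRNA. Of 18 abundant sequences that led their neighbours in all 4 libraries, 17 had more changes at position 1 in 100k than in any milk library, and 14 did at position 2. At position 3, 13 of the 18 had fewer changes than in any milk library and 2 had more. The exception at position 1 was the 15-nt form of the 5.8S end, with 233, 250 and 300 changed reads per 1000 unchanged in milk and 78.2 in 100k. Outside the 5.8S family, 13 of 13 sequences had more position 1 changes in 100k than in any milk library. Summed over these 13, position 1 changes came to 16.6, 13.3 and 15.5 per 1000 unchanged reads in milk and 98.6 in 100k, and position 2 changes to 4.59, 2.05 and 2.28 in milk and 20.9 in 100k. At position 3 the sums were 6.72, 4.07 and 3.88 in milk and 3.35 in 100k. Such sums give the most weight to the sequences with the most reads. The median of the 13 at position 1 was 11.3, 4.01 and 3.43 per 1000 in milk and 32.0 in 100k. Their ratios to the highest milk library ran from 1.04 to 17.6, with a median of 3.89.

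The leading 28S fragment, a stretch of the large ribosomal subunit RNA, had the largest number of such reads outside the family. Its form with C1A, Aaggacggtggcca, had 92.8, 43.3 and 29.3 RPM in milk and 2611 RPM in 100k (edgeR log2 fold change 5.57 with SE 0.68, adjusted p = 0.00531), and without milk 1 the log2 fold change was 6.17. Per 1000 unchanged reads this was 2.45, 1.24 and 1.02 in milk and 132 in 100k. The 28S fragment that starts 1 base later, aGgacggtggcca, had 6.95, 3.52 and 3.46 reads with G2T per 1000 in milk and 108 in 100k. An 18S fragment, Cagctaggaataa, had 6.55, 1.88 and 3.18 reads with C1A per 1000 in milk and 116 in 100k, the last from 48 reads. Its C1A form itself had 19.3, 6.84 and 13.6 RPM in milk and 24.8 RPM in 100k, while the unchanged sequence had 2947, 3633 and 4264 RPM in milk and 214 RPM in 100k.

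The changes differed by base. They were counted in the 19 sequences that led their neighbours and had 500 or more reads in each of the 4 libraries. G1C was above every milk library in 10 of 10, A1C in 5 of 5 and C1A in 3 of 3. G2T was above in 7 of 7, C2G in 7 of 7 and A2G in 4 of 4. C1T was above in 3 of 3, G1A in 9 of 10, A2C and A2T in 3 of 4 each, and C2T and G2A in 4 of 7 each. G1T was above in 1 of 10, C2A in 2 of 7, G2C in 3 of 7, A1G and A1T in 2 of 5 each and C1G in 2 of 3. Changes of T rested on 1 sequence at each position, and no test of preference between bases was run. Reads with an uncalled base made up 0.0444% to 0.0450% of milk and 0.126% of 100k. In milk all of these reads had it at position 2, and in 100k 2445 had it there and 2 elsewhere. How this relates to the changed bases at position 2 was not tested.

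**Figure D3:**
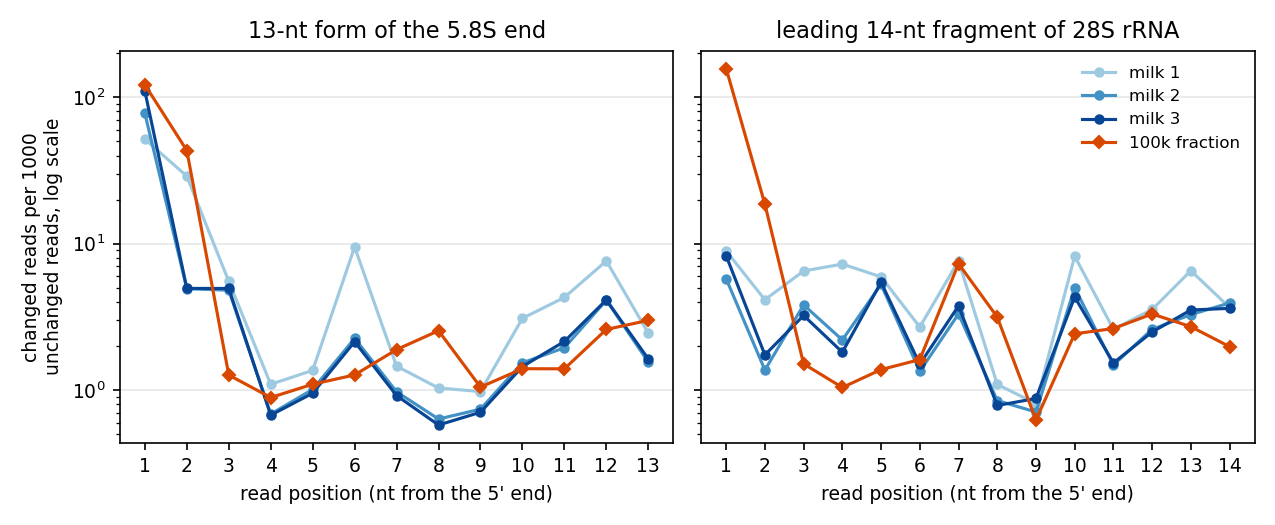
Reads with 1 changed base per 1000 unchanged reads (log scale) by read position from the 5' end, for the 13-nt form of the 5.8S end on the left and the leading 14-nt fragment of 28S rRNA on the right. In the 28S fragment 100k reaches 157 at position 1 and 18.6 at position 2, against 5.77 to 8.93 and 1.37 to 4.15 in milk, and lies under milk at position 3; on the left milk 1 is high at position 6.

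Over all sequences, reads that differed only at positions 1 and 2 from a sequence with 5 or more times their reads made up 3.81%, 2.69% and 2.92% of milk and 13.7% of 100k. Outside the 5.8S family these were 0.867%, 0.790% and 0.611% of milk and 2.15% of 100k. For positions 3 and 4 the shares were 1.10%, 0.851% and 0.736% in milk and 0.722% in 100k, below each milk library. The 12k, 35k and 70k fractions had 2.64%, 2.47% and 2.93% at positions 1 and 2, so among all reads 100k alone of the 7 libraries lay above the milk range. Outside the 5.8S family they had 0.640%, 0.858% and 1.18%, and 70k was above the milk range there too.

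Farther into the read the changes went both ways. Of the same 18 sequences, 2 had more changes than any milk library at position 4 and 1 at position 5, where 12 and 11 had fewer. At positions 6, 7 and 8, 8, 10 and 11 of the 18 had more and 7, 2 and 2 had fewer. Within the 13-nt form of the 5.8S end, T7G had 81.4, 33.9 and 31.3 RPM in milk and 536 RPM in 100k, T8G 93.5, 43.0 and 35.0 against 490, and T8A 39.8, 10.7 and 7.22 against 315 (edgeR adjusted p = 0.0299, 0.0354 and 0.0354). The log2 fold change of T8A was 4.05, and 5.13 without milk 1. The call of T8G ended with TMM (edgeR adjusted p = 0.0936). A change of both last bases, G12T and G13T, gave 9.04, 3.91 and 3.06 RPM in milk and 246 RPM in 100k. Joined to C1A and G2T, as ATactcttagcTT, it was read in no milk library and had 321 RPM in 100k, at least 178-fold higher than the highest floor of 3 reads in a milk library.

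Of the 6360 sequences, 1410 were at least 4-fold above the highest milk library in 100k (22.2%) and 891 at least 4-fold below the lowest (14%). With edgeR, 1509 were called higher (23.7%) and 587 lower (9.23%) at an adjusted p under 0.05. A sequence that entered through 100k reads alone had to be high there, and only 48 of the 1410 higher ones also had 10 or more reads in each milk library. Of the 1023 sequences that entered both ways, 48 were 4-fold higher and 112 were 4-fold lower, and edgeR called 64 higher and 86 lower. The edgeR calls rested on the milk libraries' spread, with the lone 100k library assumed to vary like milk. They ended without milk 2 (0 higher and 0 lower) and numbered 3559 and 2613 without milk 1 and 256 and 370 without milk 3. Every edgeR call on a sequence given here must be read with that, since each had an adjusted p above 0.05 without milk 2.

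Among the 1410 higher sequences, 316 differed only at positions 1 and 2 from a sequence with 5 or more times their reads in 100k. Positions 3 and 4 gave 43, positions 5 and 6 gave 38 and positions 7 and 8 gave 41. Among all 6360 the 4 counts were 687, 245, 216 and 198. Among the 891 lower sequences they were 49, 55, 40 and 27. Sequences with 0 reads in 100k could not be counted, which held for 332 of the 891, 530 of the 6360 and 0 of the 1410. The counts of the 3 sets are therefore not directly comparable. Ignoring the first 2 bases of every read left 1215 higher and 810 lower by the 4-fold rule.

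**Figure D4:**
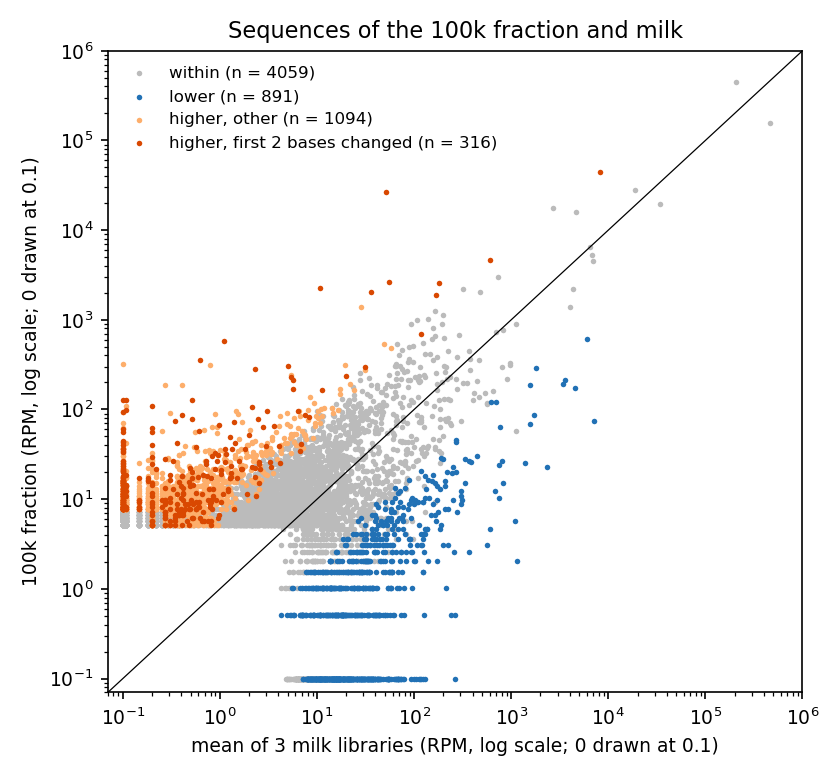
Each of the 6360 sequences by its mean RPM in milk and its RPM in 100k (log scales, 0 drawn at 0.1), with the line of equal values. Of those 4-fold above the highest milk library, 316 are changed only at the first 2 bases, shown in dark orange, and 1094 are others; 891 are 4-fold below the lowest milk library and 4059 lie between.

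Of the 1410 higher sequences, 51 ended in the 9 bases of the 5.8S family, as did 125 of all 6360. Most of the higher ones thus lay outside that family, as did most of all 6360. A 15-nt sequence that was not assigned to an RNA had 48.2, 22.5 and 14.2 RPM in milk and 1380 RPM in 100k, 48.8 times the milk mean (edgeR log2 fold change 5.62 with SE 0.73, adjusted p = 0.00693), against 44.0 RPM in 70k. Without milk 1 its log2 fold change was 6.24. With the first 2 bases ignored, the 10 most abundant higher sequences included 4 more that were not assigned, of 12, 11, 10 and 8 nt. They had 1295, 1117, 1001 and 687 RPM in 100k and at most 322, 254, 228 and 157 RPM in milk. All 4 were also above milk in 70k, at 358, 1783, 1650 and 786 RPM. The 12-nt one was above milk in 12k and 35k as well, at 613 and 880 RPM, and the 8-nt one in 35k, at 178 RPM. The rest of their values in 12k and 35k were not above the highest milk library. With 10 or more reads in 100k and 0 in every milk library there were 670 sequences, of which 168 were read in no other library. In the other direction, 530 sequences had 10 or more reads in each milk library and 0 in 100k.

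Fragments of tRNAs were among the lower sequences, beside the rRNA fragments given further below. Lysine tRNA is the carrier of the amino acid lysine, and the family from its 3' end had 7515, 12518 and 10663 RPM in milk and 174 RPM in 100k. That was 58.7-fold lower than the milk mean and 43.1-fold lower than the lowest milk library. Of its 22 sequences that entered, 20 were 4-fold lower and 0 higher. The leading sequence, aCGTTGGGCGcc, fell from 7105 ± 1773 RPM (SD, n = 3) to 74.3 RPM (edgeR log2 fold change -6.58 with SE 0.75, adjusted p = 0.00412). The lysine D arm sequence, from the loop near the 5' side of the molecule, had 401, 890 and 411 RPM in milk and 3.09 RPM in 100k (edgeR adjusted p = 0.00977). Its 9 gathering bases also occur in other tRNAs, so its family total, 837, 1582 and 979 RPM against 147 RPM, is not that of lysine tRNA alone.

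Pieces of serine, alanine, cysteine and histidine tRNA showed the same direction. The first kind of serine 5' end had 1373, 3443 and 3458 RPM in milk and 60.4 RPM in 100k, and the second kind 669, 1296 and 984 RPM against 40.7 RPM. The alanine 5' end had 801, 1499 and 1302 RPM against 51.1 RPM, and the cysteine fragment 1348, 2508 and 3334 RPM against 34.0 RPM. The histidine D arm had 195, 639 and 502 RPM in milk and 6 reads, or 3.09 RPM, in 100k, 144-fold lower than the milk mean. In each of these 5 families the 3 milk libraries were at least 15.7-fold above 100k. Of their 35 sequences that entered, 33 were 4-fold lower and 1 was higher. The families were gathered around sequences chosen after their values were seen, so these counts are a description. All 891 lower sequences had entered through milk, where they made up 39.6% of 2252.

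The 5' end of glycine tRNA, an abundant tRNA piece in many fluids, was lower by much less. It had 3783, 4322 and 5240 RPM in milk and 1535 RPM in 100k, 2.90-fold lower than the milk mean, with 4 of 14 entering sequences 4-fold lower and 2 higher. Its leading sequence did not pass the test (edgeR log2 fold change -1.55 with SE 0.55, adjusted p = 0.0512). Against lysine, serine, alanine, cysteine and histidine, the glycine piece thus had the smallest fold of the tRNA families gathered, a difference that was not tested.

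Among the rRNAs the fragments differed by which rRNA and which stretch they came from. The 3' end of 5S rRNA, which lies in the large ribosomal subunit, had 1838, 5183 and 3571 RPM in milk and 115 RPM in 100k, and its 12-nt sequence gGTGCTGTAGgc fell from 519, 1763 and 1176 RPM to 2.06 RPM (edgeR log2 fold change -9.10, SE 1.24, adjusted p = 0.00801). The 18S fragment, from the small subunit, had 13207, 15135 and 18507 RPM in milk and 1281 RPM in 100k, 12.2-fold lower than the milk mean, with 13 of 22 entering sequences 4-fold lower and 1 higher. A second 28S stretch had 567, 1109 and 730 RPM against 149 RPM. The 12k, 35k and 70k fractions had 143, 171 and 288 RPM of it, so it was below each milk library in every fraction. The leading 28S stretch differed least, at 52707, 47446 and 39359 RPM in milk and 33445 RPM in 100k, 1.39-fold lower than the milk mean. With 16 of its 63 entering sequences 4-fold higher and 3 lower, it had the most higher sequences of the 12 families gathered. It also had the most entering sequences of the 12. Over all 6360 sequences 1410 were 4-fold higher (22.2%), so this count alone does not set the stretch apart.

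**Figure D5:**
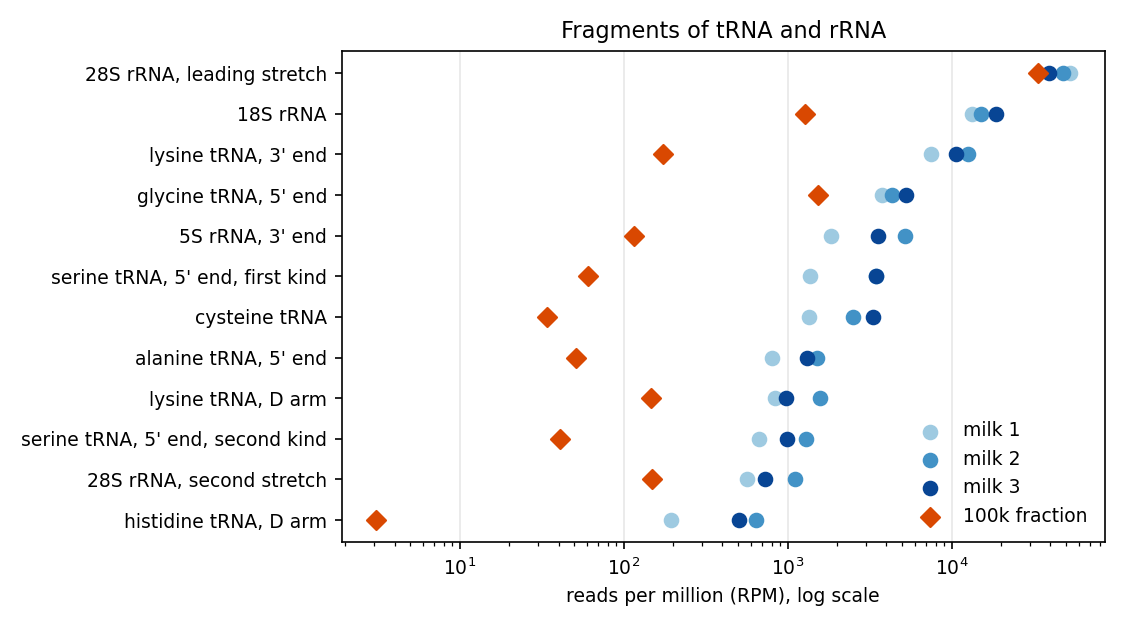
Summed RPM (log scale) of the sequences holding the 9 gathering bases of each tRNA or rRNA fragment, with circles for the 3 milk libraries and a diamond for the 100k fraction. All 12 diamonds lie left of the milk circles, by 1.18-fold from the lowest milk library for the leading 28S stretch and by 63.1-fold for the histidine D arm.

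The 70k fraction had low fragments and a high 13-nt to 12-nt ratio too, and some of its changed bases were above milk. It had 468 RPM of the lysine 3' end, 61.6 RPM of the first serine kind and 2743 RPM of the 18S fragment, and a 13-nt to 12-nt ratio of 2.00. Its C1A form of the 5.8S end had 5675 RPM, below each milk library, where 100k had 44835 RPM. Its C1T form had 1020 RPM, above the 837 RPM of the highest milk library, and its position 2 changes outside the family came to 6.73 per 1000, above the 4.59 of milk 1. Because both fractions are set against the same milk libraries, these values are given side by side and were not tested against each other.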

How the data were processed

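Per the labels, each library was prepared for short RNA by adapter ligation and sequenced by Illumina. The authors deposited, per the file headers, a read count for each distinct sequence of 8 to 15 nt. No source used here gives the trimming, the filters or any alignment. The closing total of each file was dropped, and counts were divided by the file total, which is that of the 8 to 15 nt window and not of the whole library. The 100k library held 1938689 reads and the milk libraries 1658606 to 4572650.

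Sequences with 10 or more reads in 100k or in all 3 milk libraries were kept (6360). A difference was called 4-fold when 100k lay at least 4 times above the highest or below the lowest milk library, with a count of 0 set to 3 reads. edgeR 4.0.16 (R 4.3.3) gave a quasi-likelihood test on the counts with file totals as library sizes, no further normalization and 2 residual degrees of freedom, adjusted by Benjamini-Hochberg over all sequences at 0.05. It was tested on simulated data. DESeq2 1.42.0 was an alternative. Tables were made with Python 3.11.15, pandas 2.3.3 and SciPy 1.17.1.

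A changed base was counted from reads of equal length that differ at 1 position from the unchanged sequence. Each of the 18 abundant sequences used for this had the most reads, in all 4 libraries, among sequences of its length with the same bases from position 3 on. A sequence was also left out if one differing at 1 position had 5 or more times its reads in each milk library or in 100k. Neighbours with fewer reads than that were allowed at later positions. Fragment families gathered all sequences holding 9 bases of the leading sequence. Named sequences were the 10 with the most reads in 100k, the 40 most abundant of each direction past 4-fold and the 20 most abundant in milk. From these the text gives those that bear on a named RNA or on a changed base, a choice made after their values were seen, as were the fragment names. The members, lists and tests were chosen with earlier results of these data known. No sequence of a bovine RNA was used here, so microRNAs and parent RNAs were not analysed here.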

Additional observations from a re-analysis of the deposited data

How the results depend on the processing

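The 1410 higher and 891 lower sequences past 4-fold became 2951 and 1356 at 2-fold and 229 and 277 at a minimum of 50 reads. With totals outside the 5.8S family 2178 were higher. Leaving out each milk library gave 1473 to 3490 higher and 1121 to 1658 lower, the highest of both without milk 1, the shallowest. The edgeR counts of 1509 higher and 587 lower became 958 and 1153 with TMM, 134 and 1227 with DESeq2 (2466 adjusted p undefined), 66 and 87 at a minimum of 1 read and 163 and 221 at 50 reads. They ranged from 0 to 3559 and from 0 to 2613 when each milk library was left out; without milk 2, edgeR called 0 of 6663, with 1795 at an unadjusted p under 0.05, and with all libraries 3221 of 6360 were under it. TMM moved the median log2 fold change of the 6360 sequences from 1.82 to 0.55, so the balance of higher and lower edgeR calls followed the scaling. TMM reversed the log2 fold changes of the 13-nt form (-0.25), the 14-nt form (-0.83) and the 18S fragment with C1A (-0.48), and DESeq2 that of the 14-nt form (-0.35). The cause of the other shifts was not tested.

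The gap between 100k and the milk mean was -31.9 points for 12 nt and 32.4 for 13 nt, and came to -1.84 and 0.830 over distinct sequences and -3.16 and 2.47 without the 10 most abundant sequences. Starts with A were 7.96 points higher and 9.47 without those 10. Starts with C were 23.3 points higher and reversed to -0.442 over distinct sequences and -4.17 without those 10, and starts with G moved from -31.9 to -4.46 and -3.20. Reads of 15 nt, 0.134 points higher, reversed to -5.61 without those 10 and ranged from -0.109 (without milk 3) to 0.270 without single milk libraries. Without single milk libraries the gaps were -35.8 to -28.3 for 12 nt, 30.2 to 35.5 for 13 nt, 7.71 to 8.26 for A, 20.6 to 26.6 for C and -36.0 to -28.4 for G.

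The 13-nt to 12-nt ratio was 6.07 times milk, and 5.19 to 7.93 times without single milk libraries. Position 1 changes were 3.26 times milk over 18 sequences, 6.52 times without the 5.8S family and 3.09 to 3.41 times without single milk libraries. Position 2 changes were 6.38 times milk, and 4.90 to 15.7 times without single milk libraries, the highest without milk 1. All 12 fragment families stayed below the milk mean in 48 of 48 alternatives. These families were chosen after their values were seen. The alternatives only left out 1 milk library or changed the total, so the count is a description. Ignoring the first 2 bases, setting 0 to 3 reads to the floor, and summing all family reads of 13 and 12 nt were added after seeing the data. Alternatives for microRNA and tRNA matching were not run, for want of RNA sequences. No paired analysis was possible because the 100k library has no number shared with milk. With 1 library of the fraction, no difference has a replicate check in 100k.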
